A study of Mus musculus with 15 samples.

Results

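The ABC transporters are described here in microvascular endothelial cells, the lining cells of small vessels, of mouse brain, heart and liver. Members were all genes whose single symbol in the array annotation is an Abc symbol of subfamilies a to g, and each gene was read from its probe set of highest mean. This gave 48 genes of the 19938 genes measured. ABC proteins share an ATP-binding cassette, and most use ATP to carry drugs, conjugates, sterols, phospholipids, peptides or ions across a membrane, while the E and F subfamilies have no membrane part and act in translation. In brain capillaries the P-glycoproteins (Abcb1a and Abcb1b in rodents) and Bcrp (Abcg2) sit in the blood-facing membrane and pump drugs back into the blood. Abca1 and Abcg1 pass cellular cholesterol to lipoproteins, and Abcc8 and Abcc9 are not pumps but regulatory subunits of ATP-sensitive potassium channels.

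All 3 groups came from Tie2-GFP mice of the FVB background aged 8 to 12 weeks, males and females 1:1, on standard chow, with no other genetic change or treatment named. The Tie2 (Tek) promoter drives the green fluorescent protein by which cells were sorted, so a cell type that shares this promoter's activity would be sorted with the endothelium. Each of 5 brain samples pooled 6 mice, each of 5 heart samples 4 mice and each of 5 liver samples 2 mice. Large vessels were removed. All tissues were digested for 60 min: brain with collagenase and DNase, then an albumin spin and a short trypsin step, heart with collagenase I, and liver with dispase at room temperature, then a slow spin against hepatocytes and a Percoll step. Tissue therefore cannot be told apart from enzyme, temperature or number of mice pooled. Whether the pools of a tissue came from separate digestion days is not stated, so p-values measure the spread between these pools.

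The values are log2 array signals normalised together by RMA, and a difference of 1 is a doubling of signal. Arrays of 1 tissue correlated at r = 0.978 or more over all genes, and no array was a duplicate of another. The mean of 12 pan-endothelial markers lay between 10.36 and 10.81 on all 15 arrays. Markers of other cells were not even. The mean of 12 macrophage and Kupffer cell markers was 8.10, 6.20, 8.64, 8.28 and 5.80 on liver arrays 1 to 5, against 5.30 to 5.68 on brain and heart arrays. The mean of 10 fibroblast markers was 7.77, 6.93, 7.19, 6.94 and 6.50 on heart arrays 1 to 5, against 5.43 to 6.02 elsewhere, and cardiomyocyte markers were also highest on heart arrays 1 and 3 (9.82 and 9.40, others 8.07 to 8.78). Brain array 1 had the highest pericyte and smooth muscle mean of the brain arrays (7.88, others 6.16 to 6.96). Within liver the fibroblast mean (5.96, 5.56, 5.76, 5.85 and 5.46) was also highest on arrays 1, 3 and 4. So was the mean of 7 stellate cell markers (6.24, 6.12, 6.29, 6.39 and 6.19), but the pericyte and smooth muscle mean was not. The fibroblast marker Dcn read 9.21, 6.94, 8.04, 8.77 and 5.5 on liver arrays. RMA values have no true 0, so no marker can be called absent. Calls that changed without these arrays are given with and without them. In such sorted bulk samples, fewer cells of a type and less RNA per cell cannot be told apart.

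A member is called enriched in a tissue where its signal was higher than in both other tissues, by 1 or more on the log2 scale and with an adjusted p under 0.05 in each comparison, and depleted where it was lower by the same rule. Of the 48 genes, 11 were enriched or depleted somewhere. The share of all genes with any such call was not counted, and shares are given for each call. In brain 3 were enriched (Abcb1a, Abcc4 and Abcg2), where 1.56% of all genes were. In brain 1 was depleted (Abcc9), with 0.652% of all genes. In heart 3 were enriched (Abcb1b, Abca8a and Abca8b), with 0.908% of all genes, and by limma 0 were depleted, with 0.311% of all genes, nor were any with this fold at an unadjusted p under 0.05. In liver 3 were enriched (Abcc3, Abcg1 and Abcg3), with 2.69% of all genes, and 4 were depleted (Abca5, Abcb1a, Abcb1b and Abcg2), with 1.46%. The median difference of the 48 members was -0.02 for brain minus heart, 0.01 for brain minus liver and 0.06 for heart minus liver, beside -0.03, -0.0022 and 0.03 over all genes. At least 1 of the 3 pairwise comparisons was passed by 21 members, 43.8%, and by 37.8% of all genes. The other 27 members passed none.

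**Figure D1:**
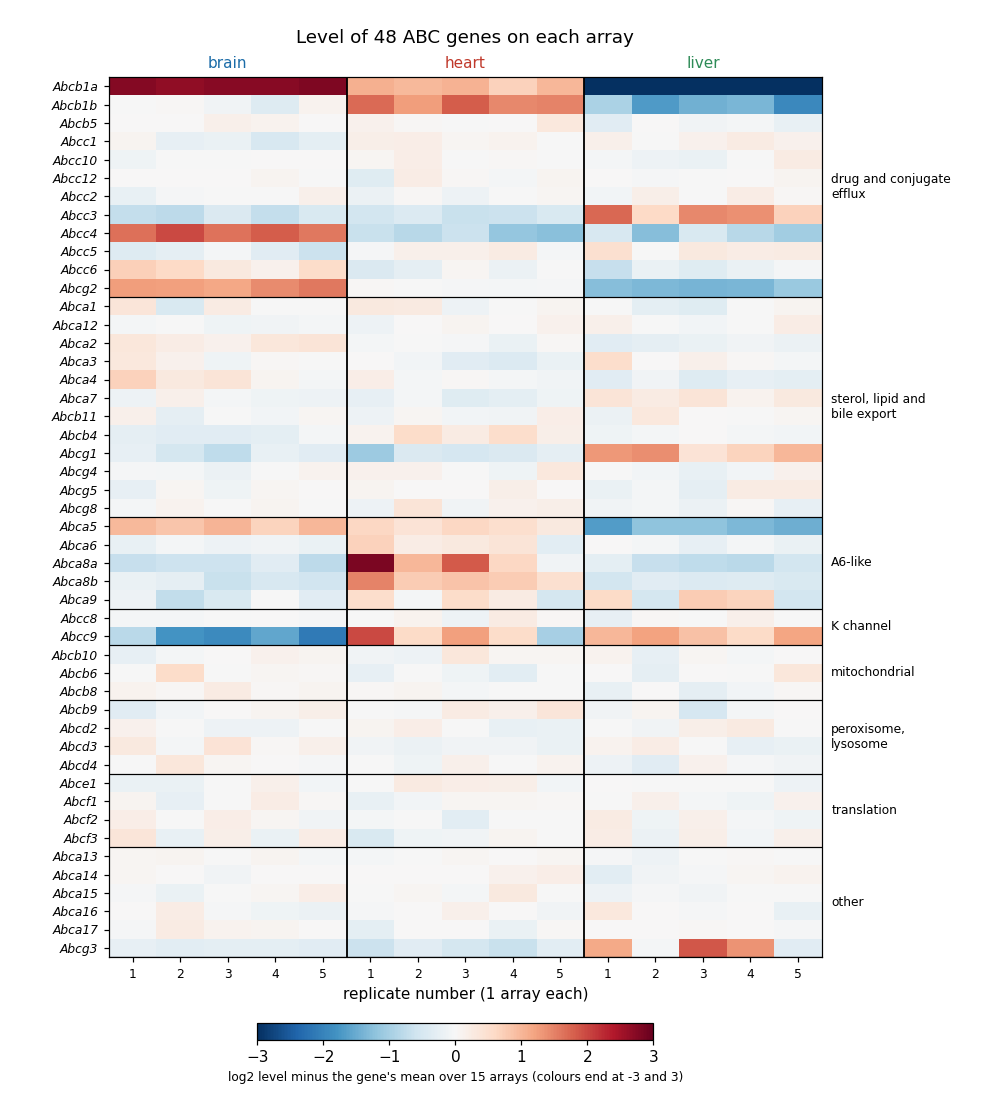
Each member's log2 signal minus its own mean over the 15 arrays (colour, ending at -3 and 3), with genes in rows grouped by role and arrays in columns grouped by tissue. Abcb1a and Abcg2 step down from brain to heart to liver on every array, and the rows of the mitochondrial, peroxisomal and translation genes stay near 0.

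The efflux pumps of drugs and conjugates made up 12 members, among them Abcb1a, Abcb1b, Abcg2, Abcc4 and Abcc3. Brain endothelium carried the highest signal of Abcb1a, Abcg2 and Abcc4, heart endothelium that of Abcb1b, and liver endothelium that of Abcc3. Liver endothelium was depleted of both P-glycoprotein genes and of Abcg2.

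Abcb1a and Abcb1b encode the rodent P-glycoproteins, and with Abcb4, the phosphatidylcholine carrier of bile, they are 3 neighbouring genes on mouse chromosome 5. The 250 bases before the RefSeq start of each P-glycoprotein gene are printed because the genes lie side by side and differ in the tissue where their signal was highest. Both are on the plus strand of GRCm38.p6, the C57BL/6J reference and not the FVB strain of these mice, at chr5:8566841-8567090 for Abcb1a and chr5:8797897-8798146 for Abcb1b. Capitals mark 3 kinds of match, searched on both strands. The GC box is GGGCGG, bound by Sp factors. The second, CCAAT, is named the CCAAT box. The third is the core bound by TCF/LEF factors, CTTTGA. No marked matches overlap.
Abcb1a: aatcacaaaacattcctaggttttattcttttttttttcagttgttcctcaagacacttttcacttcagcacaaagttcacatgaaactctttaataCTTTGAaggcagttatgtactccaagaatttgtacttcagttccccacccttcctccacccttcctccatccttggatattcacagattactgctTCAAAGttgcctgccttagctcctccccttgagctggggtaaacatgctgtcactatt
Abcb1b: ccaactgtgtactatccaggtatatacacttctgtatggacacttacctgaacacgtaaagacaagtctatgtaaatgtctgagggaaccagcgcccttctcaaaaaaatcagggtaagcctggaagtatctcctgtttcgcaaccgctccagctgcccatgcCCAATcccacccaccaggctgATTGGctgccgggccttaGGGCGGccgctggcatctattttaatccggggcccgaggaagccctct
The Abcb1a window held CTTTGA beginning at -153 and, on the other strand, at -58, and held neither of the other motifs. The Abcb1b window held a GC box at -48, CCAAT boxes at -87 and -66, and no CTTTGA. Of 32851 mouse promoter windows of this length, 13.8% held CTTTGA and 1.37% held it 2 or more times, while 32.7% held a GC box and 33.8% a CCAAT box. CTTTGA was searched with the sequences already seen. A RefSeq promoter was at hand for 38 of the 48 members, of which 8 held CTTTGA. Abcc4, with 2 listed starts, and Abcg2, with 3, had no CTTTGA in any window. The GC content was 40.4% for Abcb1a and 52.8% for Abcb1b, beside a median of 52.4% over all windows. These are matches of letters only, and binding was not measured.

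Abcb1a (probe set 10519527) was at 12.29, 12.21, 12.26, 12.28 and 12.33 on brain arrays 1 to 5. It was at 10.61, 10.50, 10.59, 10.24 and 10.54 on heart arrays and at 5.61, 6.01, 5.68, 5.92 and 6.01 on liver arrays. The 3 tissues did not overlap, and even the lowest heart array was more than 4 log2 units above the highest liver array. Brain exceeded heart by 1.78 (SE 0.09, 3.43-fold, adjusted p = 1.57e-10), heart exceeded liver by 4.65 (25.1-fold, adjusted p = 1.91e-16) and brain exceeded liver by 6.43 (86.2-fold, adjusted p = 1.6e-18), all with n = 5 arrays per tissue in limma.

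Abcb1b (10519555), its neighbour, had another order. Brain arrays read 6.19, 6.24, 6.10, 5.82 and 6.31, heart arrays 7.91, 7.46, 8.03, 7.64 and 7.69, and liver arrays 5.25, 4.51, 4.77, 4.84 and 4.27. Heart was the highest tissue and liver the lowest, again without overlap. Heart exceeded brain by 1.62 (SE 0.16, 3.07-fold, adjusted p = 5.1e-07) and liver by 3.02 (8.12-fold, adjusted p = 7.37e-11), and brain exceeded liver by 1.40 (2.65-fold, adjusted p = 1.49e-06). From brain to heart the neighbours thus differed in opposite directions, down for Abcb1a and up for Abcb1b. The paralogues are close in sequence, and the probe sequences were not used here, so some signal of either probe set may come from the other gene's RNA. Abcb4, the next gene along, was also highest in heart, at 5.47 ± 0.20 against 4.89 ± 0.12 in brain and 5.09 ± 0.06 in liver (SD, n = 5). It was higher than liver by 0.38 (adjusted p = 0.00463) and than brain by 0.57 (adjusted p = 0.000201). Without liver arrays 1, 3 and 4 the difference from liver was 0.40 (adjusted p = 0.0539).

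Abcg2 (10538640) encodes Bcrp, a pump for drugs, urate and sulphated conjugates. Brain arrays were at 10.76, 10.74, 10.68, 10.93 and 11.10, heart arrays at 9.56, 9.51, 9.47, 9.45 and 9.47, and liver arrays at 8.23, 8.16, 8.13, 8.14 and 8.39. As with Abcb1a the order was brain, heart, liver with no overlap, though the steps were smaller. Brain exceeded heart by 1.35 (SE 0.08, 2.55-fold, adjusted p = 1.45e-09) and liver by 2.63 (6.20-fold, adjusted p = 5.09e-14), and heart exceeded liver by 1.28 (2.43-fold, adjusted p = 1.67e-09).

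Abcc4 (10422280) encodes Mrp4, which exports cyclic nucleotides, prostaglandins and conjugated steroids. On brain arrays it was at 9.99, 10.32, 9.98, 10.15 and 9.93, on heart arrays at 7.68, 7.50, 7.70, 7.18 and 7.08, and on liver arrays at 7.87, 7.07, 7.88, 7.51 and 7.30. Heart and liver arrays overlapped throughout and differed by -0.10 (95% interval -0.43 to 0.23, adjusted p = 0.69). Brain stood apart, above liver by 2.54 (SE 0.16, 5.84-fold, adjusted p = 6.72e-10) and above heart by 2.65 (6.26-fold, adjusted p = 9.96e-10). Choroid plexus, an epithelium that carries Mrp4, was represented by 7 markers. In brain 3 were enriched: Ttr (12.49, heart 5.33, liver 8.44), Kl (5.94, heart 4.61, liver 4.48) and Clic6 (6.06, heart 4.41, liver 4.54). Of the rest 1, the water channel Aqp1, was depleted there (6.09 in brain, 10.92 in heart and 12.07 in liver). The mean of the 7 thus combines markers that go opposite ways, and Aqp1 raises it in heart and liver. On brain arrays this mean was 7.82, 7.06, 7.19, 7.0 and 6.83, against 6.22 to 6.34 in heart and 6.76 to 7.15 in liver. Brain array 1 had the highest mean of these markers, but Ttr was high on every brain array (12.72, 12.77, 12.58, 12.26 and 12.08). Leaving out array 1 therefore does not remove their signal. Without it Abcc4 exceeded liver by 2.57 (adjusted p = 5.04e-09). The part of choroid plexus RNA in the Abcc4 signal was not tested.

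Abcc3 (10389894) encodes Mrp3, which exports glucuronides and bile salts and is also made by hepatocytes and bile duct cells. Brain arrays were at 5.05, 4.98, 5.33, 5.05 and 5.32, heart arrays at 5.21, 5.36, 5.09, 5.11 and 5.32, and liver arrays at 7.49, 6.37, 7.21, 7.14 and 6.46. Every liver array lay above every other array, and liver arrays 1, 3 and 4 were the highest of the liver. Liver exceeded heart by 1.72 (SE 0.17, 3.29-fold, adjusted p = 5.74e-07) and brain by 1.79 (3.45-fold, adjusted p = 2.68e-07). Liver arrays 1, 3 and 4 were also those with the high macrophage markers, of which 9 of 12 were enriched in liver. Their fibroblast and stellate means were likewise the highest of the liver. Without these arrays liver exceeded the nearer tissue by 1.20 (adjusted p = 5.85e-06). Hepatocyte markers were enriched in liver for 4 of 11, with array means of 7.0, 7.05, 6.85, 6.87 and 7.46 in liver, 5.88 to 5.98 in brain and 5.12 to 5.26 in heart. The 11 include Ttr, which was enriched in brain (12.49, liver 8.44, heart 5.33) and raises the brain mean. The parts of hepatocyte, macrophage, fibroblast and stellate cell RNA in the Abcc3 signal were not tested. Of the exporters that hepatocytes place in the bile canaliculus, Abcc2 was at 5.17 in liver, 5.07 in brain and 5.05 in heart, and the bile salt pump Abcb11 at 3.73, 3.67 and 3.68, with no comparison passed. Both read below the median gene (6.11) in every tissue, so they do not measure the hepatocyte share. Alb, among the hepatocyte markers enriched in liver, was at 9.88 there, 4.19 in brain and 4.26 in heart.

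The remaining pumps differed by less. Abcc6, whose loss causes ectopic mineralisation, was highest in brain (6.57 ± 0.25, heart 5.95 ± 0.20, liver 5.81 ± 0.24) and exceeded heart by 0.62 (adjusted p = 0.00331) and liver by 0.76 (adjusted p = 0.000301). Abcc5, an exporter of cyclic nucleotides, was lowest in brain (7.33 ± 0.21, heart 7.76 ± 0.13, liver 7.91 ± 0.17), differing from heart by -0.43 (adjusted p = 0.00912) and from liver by -0.59 (adjusted p = 0.000427). Abcc4 and Abcc5 thus both export cyclic nucleotides, and in brain the former was enriched and the latter lower. Abcc1, the leukotriene and glutathione-conjugate exporter Mrp1, was also lowest in brain (6.35 ± 0.20, heart 6.69 ± 0.08, liver 6.71 ± 0.09). Its difference from heart, -0.34 (adjusted p = 0.0138), had an adjusted p of 0.059 without heart arrays 1 and 3, and the nearer-tissue difference was -0.29 (adjusted p = 0.154) without liver arrays 1, 3 and 4. Abcb5 passed only heart over liver (0.24, adjusted p = 0.0412), and Abcc2, Abcc10 and Abcc12 passed no comparison, with no difference above 0.12. Counting smaller folds, brain was higher than both other tissues for 6 members (4.7% of all genes) and lower for 3 (2.82%). Heart was higher for 5 (3.73%) and lower for 0 by limma (3.27%), or for 1, Abca3, at an unadjusted p under 0.05, and liver was higher for 4 (10.4%) and lower for 4 (5.64%).

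**Figure D2:**
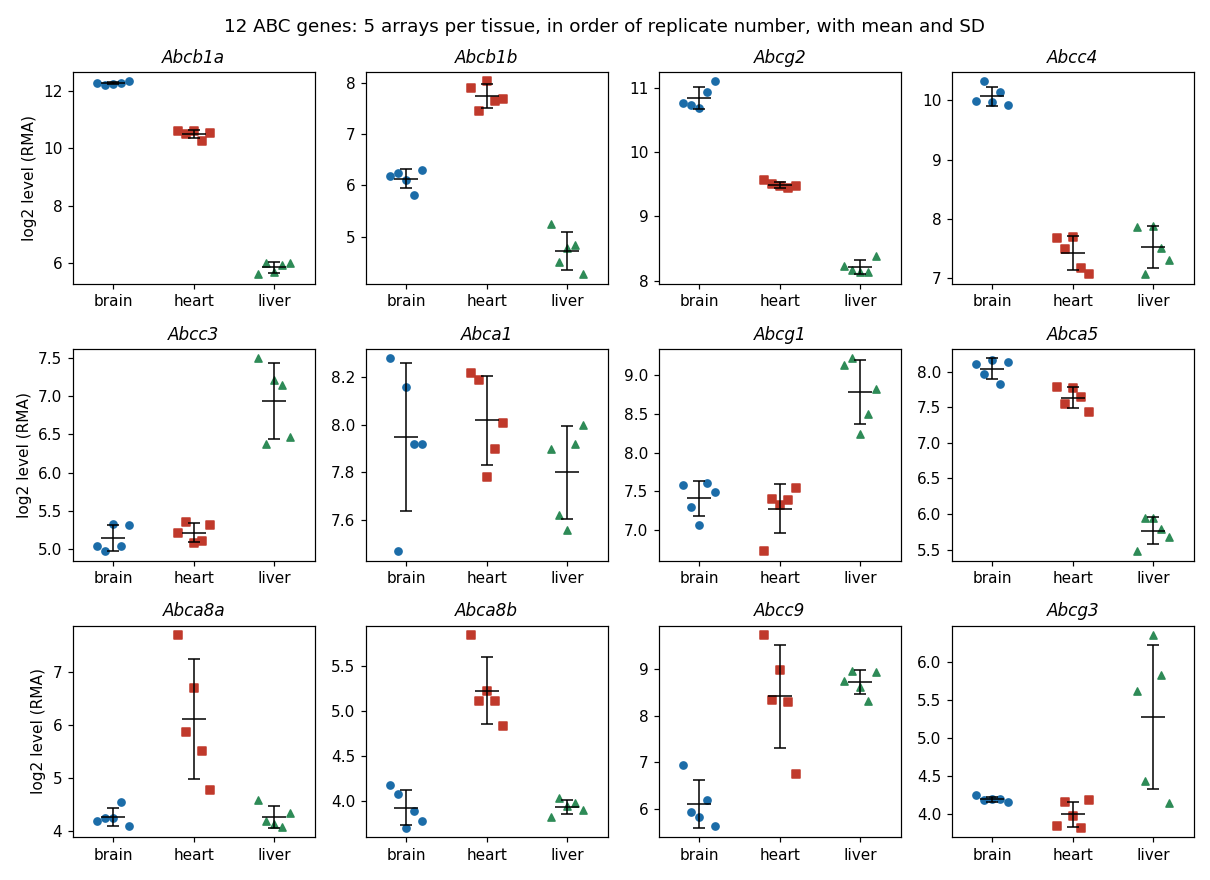
Log2 signal (y axis) of the enriched or depleted members and Abca1 in each tissue (x axis). Each point is 1 array, and the lines give the mean and its SD over 5 arrays, each panel on its own scale. Abcb1a falls from 12.27 in brain to 5.85 in liver, the Abca1 points of the 3 tissues overlap, and Abcg3 in liver splits into 3 high and 2 low arrays.

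Of the 12 exporters of sterols, phospholipids and bile components, 1 was enriched in a tissue (Abcg1, in liver), 3 others differed by less than a doubling (Abca2 in brain, Abca7 in liver and Abcb4 in heart), and 6 passed no comparison. The cholesterol exporters Abca1 and Abcg1 therefore had unlike patterns.

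Abca1 (10512949), which loads cholesterol and phospholipid onto lipid-poor apolipoprotein A-I, was at 8.28, 7.47, 8.16, 7.92 and 7.92 on brain arrays, 8.22, 8.19, 7.78, 7.90 and 8.01 on heart arrays and 7.90, 7.62, 7.56, 7.92 and 8.00 on liver arrays. The tissues overlapped throughout. The difference was -0.07 for brain minus heart (95% interval -0.36 to 0.23, adjusted p = 0.819), 0.15 for brain minus liver (-0.14 to 0.44, adjusted p = 0.523) and 0.21 for heart minus liver (-0.08 to 0.51, adjusted p = 0.28). The intervals reach at most 0.51, which is well under a doubling of signal.

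Abcg1 (10443730), which passes cholesterol on to lipid-bearing HDL, read 7.58, 7.30, 7.07, 7.61 and 7.49 on brain arrays, 6.73, 7.40, 7.32, 7.39 and 7.55 on heart arrays and 9.13, 9.22, 8.24, 8.5 and 8.82 on liver arrays. Every liver array was above every brain and heart array. Liver exceeded brain by 1.37 (SE 0.18, 2.59-fold, adjusted p = 1.41e-05) and heart by 1.50 (2.84-fold, adjusted p = 5.63e-06), while brain and heart differed by 0.13 (95% interval -0.26 to 0.52, adjusted p = 0.712). Abcg1 is also made by macrophages. Its highest liver array was array 2, where the macrophage marker mean was 6.20. Without liver arrays 1, 3 and 4 the difference from the nearer tissue was 1.61 (adjusted p = 3.98e-05). The liver arrays left, 2 and 5, still read 7.57 and 5.29 for the macrophage marker Vsig4, against a mean of 4.10 in brain and in heart. The part of macrophage RNA in the Abcg1 signal was not tested.

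Abca7, a phospholipid exporter linked to phagocytosis, was at 6.61 ± 0.12 in liver, above brain (6.26 ± 0.12) by 0.35 (adjusted p = 0.00476) and heart (6.11 ± 0.13) by 0.51 (adjusted p = 0.000195). Abca2, a lysosomal lipid transporter, was at 6.58 ± 0.10 in brain, above heart (6.24 ± 0.09) by 0.33 (adjusted p = 0.00423) and liver (6.08 ± 0.09) by 0.50 (adjusted p = 5.14e-05). With each array centred on the pan-endothelial markers, a scaling that moved the median of all genes by -0.249 for brain minus heart and -0.213 for brain minus liver, its brain difference was 0.11 (adjusted p = 0.416). Abca3, the lamellar body lipid carrier, passed only heart below liver (-0.34, adjusted p = 0.0356), and the retinal carrier Abca4 only brain over liver (0.55, adjusted p = 0.00146). Abca12, Abcb11, Abcg4, Abcg5 and Abcg8 passed none, and their differences and those of Abca1 reached at most 0.21. The sterol pair Abcg5 and Abcg8, which hepatocytes use to send sterols into bile, was thus not among the genes higher in liver. Both read below the median gene (6.11) in every tissue.

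The A6-like transporters, Abca5, Abca6, Abca8a, Abca8b and Abca9, are 5 neighbouring genes on mouse chromosome 11, and they did not move as a block. Abca8a and Abca8b were enriched in heart and Abca5 was depleted in liver. Abca6 was highest in heart by a small margin, and Abca9 passed no comparison. Substrates of most of these are little known. Abca5 sits in late endosomes and lysosomes and takes part in cholesterol traffic.

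Abca5 (10392642) was at 8.11, 7.97, 8.17, 7.82 and 8.14 on brain arrays, 7.78, 7.55, 7.77, 7.64 and 7.43 on heart arrays and 5.48, 5.94, 5.94, 5.79 and 5.68 on liver arrays. Liver lay apart below both. It was lower than heart by 1.87 (SE 0.10, 3.65-fold, adjusted p = 1.9e-10) and than brain by 2.28 (4.84-fold, adjusted p = 8.04e-12). Brain exceeded heart by 0.41 (adjusted p = 0.0104), which became 0.19 (adjusted p = 0.227) with pan-endothelial centring, where the brain-enriched Cldn5 is 1 of the 12 markers.

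Abca8a (10392522) read 7.70, 5.87, 6.71, 5.51 and 4.78 on heart arrays, 4.19, 4.25, 4.25, 4.55 and 4.09 on brain arrays and 4.59, 4.18, 4.13, 4.08 and 4.34 on liver arrays. All heart arrays were above all others, but they spread over nearly 3 log2 units, with arrays 1 and 3 at the top and array 5 at the bottom. Heart exceeded brain by 1.85 (SE 0.36, 3.60-fold, adjusted p = 0.00132) and liver by 1.85 (3.61-fold, adjusted p = 0.000761). Abca8b (10392484) had the same highest and lowest heart arrays in a narrower range: 5.84, 5.11, 5.22, 5.11 and 4.83 in heart, 4.17, 4.08, 3.70, 3.89 and 3.78 in brain and 3.82, 4.03, 3.94, 3.97 and 3.90 in liver. Heart exceeded liver by 1.29 (SE 0.14, 2.45-fold, adjusted p = 1.93e-06) and brain by 1.30 (2.46-fold, adjusted p = 2.98e-06). The fibroblast marker mean was likewise highest on heart arrays 1 and 3 and lowest on heart array 5. So were the pericyte and smooth muscle mean (7.85, 7.17, 7.58, 7.12 and 6.57) and the cardiomyocyte mean (9.82, 8.78, 9.40, 8.09 and 8.07). The match is thus not particular to fibroblast markers. Dpt, which encodes the matrix protein dermatopontin, was at 9.49, 7.49, 8.95, 7.61 and 5.53 on heart arrays 1 to 5. Of the 10 fibroblast markers 5 were enriched in heart, and 4 were without arrays 1 and 3. Without those arrays the heart difference was 1.12 (adjusted p = 0.000636) for Abca8a and 1.09 (adjusted p = 4.31e-06) for Abca8b. The parts of fibroblast, pericyte, smooth muscle and cardiomyocyte RNA in these signals were not tested.

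Abca6 was at 4.77 ± 0.37 in heart, 4.36 ± 0.07 in brain and 4.39 ± 0.10 in liver, above liver by 0.37 (adjusted p = 0.0423) and above brain by 0.40 (adjusted p = 0.0455). This call was lost under most alternatives, among them leaving out heart arrays 1 and 3 (0.22, larger adjusted p = 0.255) or liver arrays 1, 3 and 4 (0.39, larger adjusted p = 0.197). Each difference here is from the nearer tissue, and the p-value is the larger of both comparisons.

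**Figure D3:**
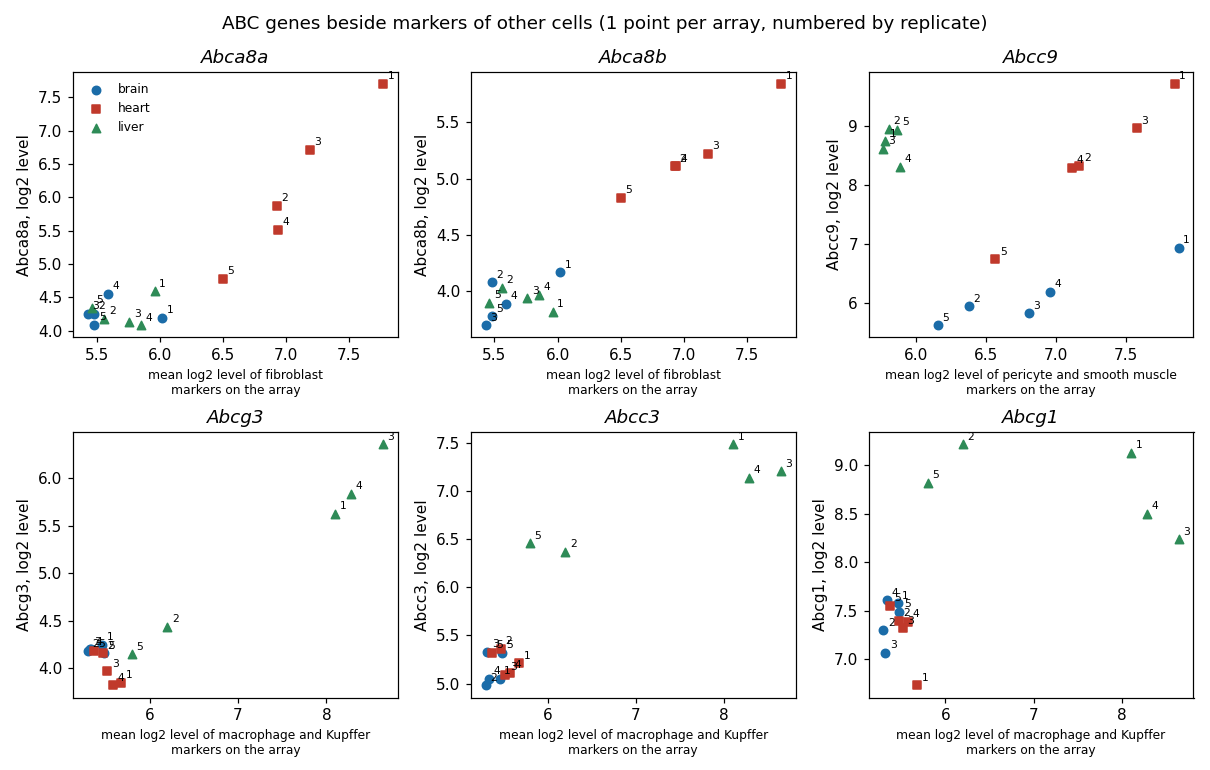
Signal of 6 members (y axis, log2) against the mean of markers of another cell type (x axis, log2), with 1 point per array, numbered by replicate and coloured by tissue. Heart arrays 1 and 3 are highest in the fibroblast markers (7.77 and 7.19) and in Abca8a (7.70 and 6.71), and liver arrays 1, 3 and 4 are highest in the macrophage markers and in Abcg3 (5.63, 6.36 and 5.84). Within heart, pericyte and cardiomyocyte marker means are also highest on arrays 1 and 3.

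The sulphonylurea receptors regulate ATP-sensitive potassium channels, in which they surround a pore of Kir6 subunits. Abcc9, the vascular receptor, was low in brain and high in both heart and liver, whereas Abcc8, the receptor of pancreatic beta cells, was at 5.67, 5.75 and 5.69 in brain, heart and liver with no comparison passed. Abcc9 (10549108) was at 6.94, 5.95, 5.83, 6.20 and 5.63 on brain arrays, 9.72, 8.33, 8.97, 8.30 and 6.75 on heart arrays and 8.75, 8.96, 8.62, 8.32 and 8.94 on liver arrays. Heart array 5 lay below brain array 1, so brain and heart overlapped, whereas liver arrays were tight and above all brain arrays. Brain minus heart was -2.30 (SE 0.39, 4.93-fold lower, adjusted p = 0.000309) and brain minus liver -2.61 (6.09-fold lower, adjusted p = 4.37e-05). Heart and liver differed by -0.31 (95% interval -1.12 to 0.51, adjusted p = 0.609). Without heart arrays 1 and 3 the brain difference was -1.68 (adjusted p = 0.00216) and heart minus liver was -0.92 (adjusted p = 0.0569). Without brain array 1 the brain difference from heart was -2.51 (adjusted p = 0.00021).

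Abcc9 with the pore subunit Kcnj8 (Kir6.1) is also a channel of pericytes and smooth muscle. Kcnj8 read 8.68, 7.92, 8.81, 8.01 and 6.58 on heart arrays, 6.65, 5.66, 6.34, 7.14 and 6.25 on brain arrays and 6.89, 7.08, 6.99, 6.78 and 7.24 on liver arrays. It was enriched in heart, above brain by 1.59 (adjusted p = 0.00224) and above liver by 1.00 (adjusted p = 0.0305), with heart array 5 again the lowest of its group. Without heart arrays 1 and 3 this call was lost, with heart minus liver at 0.51 (adjusted p = 0.274) and brain minus heart at -1.10 (adjusted p = 0.028). The other pore gene, Kcnj11, was at 6.12, 6.20 and 6.02 in brain, heart and liver with no call. The 12 pericyte and smooth muscle markers, of which Kcnj8 is 1, averaged 7.85, 7.17, 7.58, 7.12 and 6.57 on heart arrays, 6.16 to 7.88 in brain and 5.77 to 5.89 in liver. Over the heart arrays, and over the brain arrays, Abcc9 was highest and lowest on the same arrays as these markers (arrays 1 and 5 in each tissue). In liver Abcc9 was high, and 6 of the 12 markers were lower there than in both other tissues, 4 of these by enough to be called depleted. With all heart arrays 3 of the 12 were enriched in heart, and without heart arrays 1 and 3 the count by limma was 0, or 1 at an unadjusted p under 0.05 with the same fold. Of 7 stellate cell markers, 1 was higher in liver than in both other tissues, Lrat (5.59, brain 4.63, heart 4.78), and 0 were lower. The parts of pericyte, smooth muscle and stellate cell RNA in the Abcc9 signal were not tested.

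Abcg3 (10531952), a rodent member of the G subfamily of uncertain substrate, was called in liver with a split inside the group. Brain arrays were at 4.25, 4.18, 4.2, 4.2 and 4.16, heart arrays at 3.85, 4.16, 3.97, 3.82 and 4.18, and liver arrays at 5.63, 4.44, 6.36, 5.84 and 4.15. Liver arrays 1, 3 and 4 were high, and liver arrays 2 and 5 were at or near the brain and heart values. Liver exceeded brain by 1.09 (SE 0.30, 2.13-fold, adjusted p = 0.0118) and heart by 1.29 (2.45-fold, adjusted p = 0.00346). Arrays 1, 3 and 4 also had the high macrophage markers, such as the Kupffer cell receptors Vsig4 (10.23, 7.57, 10.64, 10.70 and 5.29 on liver arrays 1 to 5) and Clec4f (9.18, 6.56, 9.70, 9.20 and 6.43). The fibroblast and stellate means were also highest on these liver arrays, by a smaller margin. Without these 3 arrays the Abcg3 difference was 0.10 (adjusted p = 0.677) and the call was lost, and the number of macrophage markers enriched in liver went from 9 to 1 of 12. Without liver array 3 alone the difference was 0.82 (adjusted p = 0.0311), and without liver array 4 alone 0.95 (adjusted p = 0.0371), both short of a doubling. The part of any of these other cells in the Abcg3 signal was not tested.

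The members grouped as mitochondrial, as peroxisomal and lysosomal, and as translation genes passed no comparison. The 3 mitochondrial members, Abcb6, Abcb8 and Abcb10, had differences of at most 0.27. The 4 peroxisomal and lysosomal members differed by at most 0.30, for Abcd3, a carrier of fatty acids into peroxisomes (8.47, 8.17 and 8.28 in brain, heart and liver, adjusted p = 0.0555 for brain minus heart). The 4 translation members differed by at most 0.19. Abce1, which splits ribosomes after a stop codon, was at 8.58, 8.76 and 8.61, and Abcf1, which acts in initiation, at 8.40, 8.36 and 8.41. Of the 48 members, 27 had an array mean below that of the median gene (6.11), among them 4 of the 11 called (Abca8a, Abca8b, Abcc3 and Abcg3). The 5 members Abca13 to Abca17 passed no comparison, with at most 0.17.

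**Figure D4:**
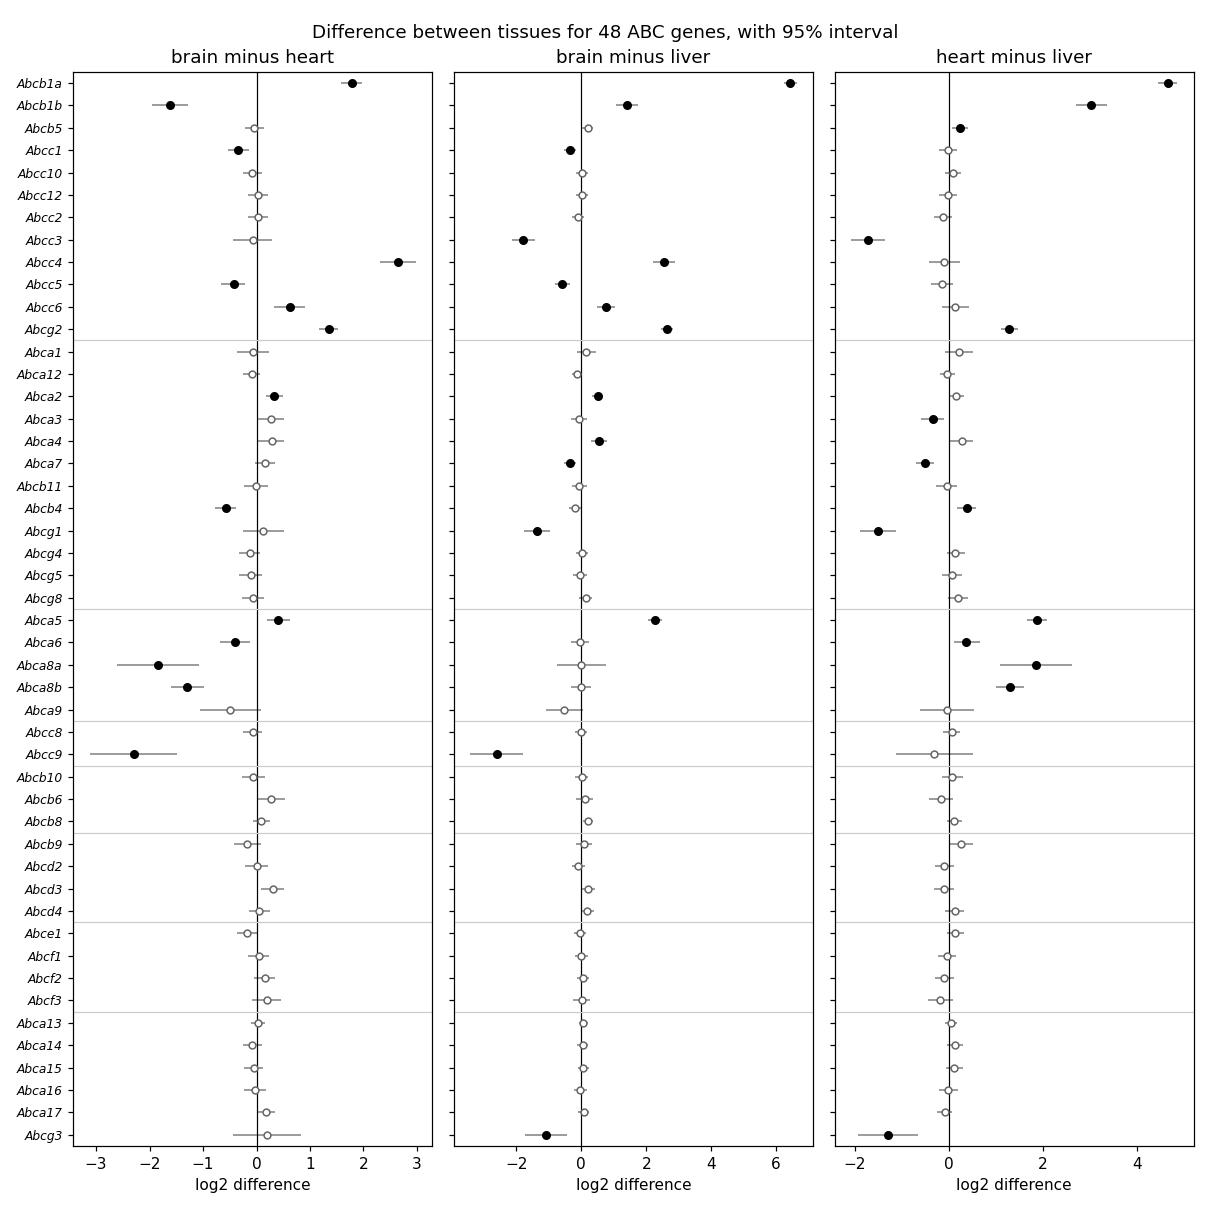
Each member's log2 difference between tissues with its 95% interval, for brain minus heart, brain minus liver and heart minus liver (x axis, each panel with its own scale), with filled points for an adjusted p under 0.05. Abcb1a lies farthest from 0 in both comparisons with liver (6.43 and 4.65), and most members of the organelle and translation groups have intervals that span 0.

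In pairwise comparisons the family's members passed in both directions. Brain was higher than heart for 6 (8.29% of all genes) and lower for 8 (7.11%), brain was higher than liver for 8 (11.1%) and lower for 7 (14.0%), and heart was higher than liver for 9 (11.5%) and lower for 5 (16.3%). Abcb1a, Abcb1b, Abcg2 and Abca5 passed all 3 comparisons, and the share of all genes that did so was not counted.

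Genes that work beside the transporters were taken from lists made for this description. Over all genes, 1.56% were enriched in brain and 2.69% in liver, while 0.652% and 1.46% were depleted there. These shares apply to each list below. Of 10 uptake and exchange carriers for drugs and organic anions, 5 were enriched in brain and 2 in liver. Slco1c1, a thyroxine carrier, was at 12.06 ± 0.04 in brain, against 5.20 ± 0.21 (heart) and 4.70 ± 0.18 (liver), and Slco1a4, which moves bile salts and drugs, at 10.88 ± 0.29, 4.02 ± 0.21 and 3.69 ± 0.25. The organic anion carrier Slc22a8 was at 10.93 ± 0.16, 5.55 ± 0.09 and 5.28 ± 0.19. The prostaglandin carrier Slco2a1 was the reverse, at 10.84 ± 0.16 in liver, 6.47 ± 0.36 in brain and 6.54 ± 0.23 in heart.

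Of 11 xenobiotic and stress sensors, 1 was enriched in liver and depleted in brain. This was Ahr, the aryl hydrocarbon receptor (brain 6.96 ± 0.29, heart 8.03 ± 0.11, liver 9.52 ± 0.22). The receptors Nr1i2 (PXR) and Nr1i3 (CAR), known to switch on Abcb1 genes in several tissues, passed no comparison, with means from 5.06 to 5.12 and from 5.43 to 5.47. Of 15 genes of sterol efflux and its control, 4 were enriched in liver and 1 in brain. Apoe was at 12.35 ± 0.15 in liver, 10.23 ± 0.29 in brain and 9.29 ± 0.20 in heart. Mylip, an LXR target that marks the LDL receptor for breakdown, was at 9.74 ± 0.11, 7.16 ± 0.38 and 8.14 ± 0.61 in the same order. Pltp, the phospholipid transfer protein, ran the other way, from 11.85 ± 0.15 in brain through 9.80 ± 0.18 in heart to 7.61 ± 0.63 in liver. The LXR gene Nr1h3 passed no comparison (brain 5.78 ± 0.24, heart 5.72 ± 0.06, liver 6.08 ± 0.47).

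Of 16 genes that supply glutathione or attach it to compounds that the Abcc pumps export, 2 were enriched in brain and 4 in liver, and 1 was depleted in liver. Gsta4 went from 9.55 ± 0.28 in brain through 7.21 ± 0.34 in heart to 6.13 ± 0.21 in liver, the order of Abcb1a and Abcg2, and Gstp1 was highest in liver (11.71 ± 0.20, brain 10.36 ± 0.29, heart 9.48 ± 0.19). The list of haem and iron-sulphur synthesis, which works beside the mitochondrial transporters, had 12 genes, of which 1 was enriched in brain, Alas1, the entry enzyme of haem synthesis (9.18 ± 0.24, heart 6.91 ± 0.34, liver 7.10 ± 0.23), and 1 in liver, the iron carrier Slc25a37 (9.05 ± 0.07, brain 7.09 ± 0.03, heart 7.18 ± 0.23). None of 11 peroxisomal genes and none of 7 ribosome recycling genes was enriched or depleted in a tissue. Of the ABC genes under other symbols, the antigen peptide pair Tap1 and Tap2 and the chloride channel Cftr passed no comparison.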

How the data were processed

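The file deposited by the authors holds log2 signals of 35556 probe sets on 15 arrays, made by RMA in Affymetrix Power Tools, per the submitters' processing notes, from 5 ng of RNA per sample. Tool versions and genome build: not given in the sources used here. RMA quantile-normalises the arrays and compresses large differences, and a fold here likely understates the difference in RNA. Signal was not tested against background probes. Probe sets with 1 gene symbol were used (21789, of which 21698 matched RefSeq). The probe set of highest mean was kept for each of 999 genes with several, which left 19938 genes. Of the members only Abcb5 had 2 probe sets.

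Tissue means were fitted for every gene with limma 3.58.1 (lmFit, eBayes) in R 4.3.3, and p-values were adjusted by Benjamini-Hochberg over all genes in each comparison, with a threshold of 0.05. The fit was tested on simulated data. The members, their role groups, the related and marker lists and the tests were chosen with earlier results of these data known, so they are descriptions and not independent evidence. Values on every array are given for members enriched or depleted in a tissue and for Abcb1a, Abcg2, Abcc4 and Abca1. Members with smaller called folds are given by their differences, other members by their range, and at most 4 genes per related list. Alternatives were other fold and signal limits, other scalings, the arrays used, probe set choice and a replicate block. Where an alternative's difference is given without naming the comparison, it is from the nearer tissue, with the larger adjusted p of both comparisons. Leaving out liver arrays 1, 3 and 4 together was chosen after seeing the data. Array number, 5 per tissue, limits the precision. Promoter letters are from RefSeq, matched by gene ID.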

Additional observations from a re-analysis of the deposited data

Results flagged for a closer look

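Among 36 groups of 5 arrays examined (12 members in 3 tissues), 2 held an array far from the rest, where chance gives about 1 in 20. Abcb1a was lowest on heart array 4, at 10.24, with the other heart arrays at 10.50 to 10.61, so that the gap was 0.712 of the range against a critical value of 0.71. Abcg1 was lowest on heart array 1, at 6.73, with the others at 7.32 to 7.55 and a gap of 0.719 of the range. Both gaps are just past the critical value. Neither array changes a call: without any 1 array the brain difference of Abcb1a stayed between 1.71 and 1.81, and the liver difference of Abcg1 between 1.26 and 1.51.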

How the results depend on the processing

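Over 29 alternative settings, the 6 counts of enriched or depleted members stayed within 1.5 times their value in 170 of 174 comparisons. With only genes at or above the median gene, enriched members numbered 1 in heart (Abca8a and Abca8b were not tested there) and 1 in liver (Abcc3 and Abcg3 were not tested there). With a minimum log2 difference of 1.5, liver had 1 enriched member (without Abcg1 and Abcg3) and 2 depleted members (without Abcb1b and Abcg2). Brain then had 2 enriched members (without Abcg2, at 1.35 above heart), a change still within 1.5 times. In heart Abca8b, at 1.29 above liver, also falls short of this limit. Without any 1 array, members enriched in liver numbered 2 to 3, with Abcg3 at 0.82 without liver array 3 and at 0.95 without liver array 4, and the other 5 counts did not move. Without liver arrays 1, 3 and 4 there were 2, with 2.24% of all genes enriched. Of 669 comparisons of single members and the 3 Abca1 differences, 0 reversed and 27 no longer passed an adjusted p of 0.05, 21 of them Abca6, 2 Abcc1 and 1 each Abca2, Abca5, Abcb4 and Abcg3. The cause was not tested.

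Replicate numbers are shared across tissues in the labels. Same-numbered arrays deviated together at correlations of -0.001 to 0.204 (15 pairs, 6 over 0.1), others at -0.167 to 0.126 (60 pairs), and 20 of 30 best matches were with the own number, a hint from the data and not the design. With the replicate number as a block, the counts were 3, 1 and 3 members enriched in brain, depleted in brain and enriched in heart, 0 depleted in heart, and 3 enriched and 4 depleted in liver, as without it.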

Other observations

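Abca9, the A6-like member between Abca8a and Abca6, passed no comparison and was chosen for this description after its values were seen. It was at 5.78, 4.67, 5.96, 5.86 and 4.64 on liver arrays 1 to 5, at 5.73, 5.14, 5.75, 5.45 and 4.66 in heart and at 5.05, 4.46, 4.74, 5.18 and 4.85 in brain. Its high liver arrays were arrays 1, 3 and 4, those with high macrophage markers and with the highest fibroblast and stellate means of the liver. Its lowest heart array was array 5, which was also lowest in fibroblast, pericyte and smooth muscle, and cardiomyocyte markers. Brain averaged 4.85 ± 0.28, heart 5.35 ± 0.46 and liver 5.38 ± 0.67 (SD, n = 5). The part of other cells in this spread was not tested.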
